A study of Mus musculus with 12 samples.

Results

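The genes described here are 9 that act in mitochondrial fission and fusion: Fis1, Dnm1l, Mff, Mtfr1, Mfn1, Mfn2, Opa1, Oma1 and Yme1l1. They are 9 of the 18193 genes that a probe set of the array names singly. Every probe set annotated to a single one of these symbols was taken, which gave 25 probe sets. The set was selected on the knockdown minus wild type differences of these same arrays, among which Fis1 was one of the lowest, so those differences are given as a description and no test of them is read. The arrays were 3 of G9a knockdown and 3 of wild type mouse erythroleukemia (MEL) cells, a virus-transformed red cell precursor line. G9a, encoded by Ehmt2, places mono- and dimethyl marks on lysine 9 of histone H3. The labels describe both groups as grown for 4 days with 2% dimethyl sulfoxide, which drives MEL cells toward maturation, and the knockdown as induced with 5 µg/ml of doxycycline. They do not say whether wild type cells received doxycycline, what construct lowered G9a, or whether the line was a single clone.

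Mitochondria divide when the dynamin-like GTPase DRP1, the product of Dnm1l, gathers on the outer membrane and constricts it, and they join through GTPases of the outer membrane (mitofusins 1 and 2) and of the inner membrane (OPA1). Proteases of the inner membrane, OMA1 and YME1L1, cut OPA1 and so set how much of its long, fusion-competent form remains. In red cell precursors the mitochondria first carry heme synthesis and are cleared as the cells mature. These are RNA levels of a bulk culture, in which fewer cells of a type and less RNA per cell cannot be told apart, and no protein or mitochondrial shape was measured.

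Values are GCRMA log2 values (a background-corrected, normalised summary of the probes of a probe set), given as mean ± SD with n = 3 per group. Differences are knockdown minus wild type, and a knockdown and a wild type array of the same replicate number are called a pair. The label check came first. Ehmt2 read 6.67, 7.33 and 7.58 in the knockdown arrays, against 9.92, 10.03 and 10.23 in wild type, at probe set 1460692_at. It fell at both of its probe sets, by −2.86 at 1426888_at (limma adjusted p = 0.0278) and by −2.87 at 1460692_at (limma adjusted p = 0.0316). Without the replicate number as a block the limma adjusted p at 1460692_at was 0.0719, and at 1426888_at it was 0.0216. Of the erythroid markers on the array, 8 of 8 lay above the filter at log2 4, with Gata1 at 13.40 ± 0.30 in the knockdown and 13.25 ± 0.16 in wild type. Of these 8, 5 were higher in the knockdown and 3 lower. Klf1 differed most, by 0.40 with pairs of 0.28, 0.40 and 0.52, and its groups overlapped. Tfrc differed by −0.23 (−0.019 in MAS5), with the groups apart, as were 7.33% of all tested probe sets in that direction. The part of these markers in the results below was not tested. No lymphoid (0 of 4), mast cell (0 of 3) or fibroblast and endothelial marker (0 of 5) lay above the filter. Of the myeloid markers 1 of 5 did (Csf1r, at 6.45 ± 0.12 in the knockdown and 6.50 ± 0.27 in wild type). Of the megakaryocyte markers 2 of 4 did, Itga2b and Pf4. Itga2b was at 11.15 ± 0.28 in the knockdown and 11.86 ± 0.22 in wild type, with the groups apart. Pf4 was at 8.26 ± 1.01 and 8.38 ± 0.47, with the groups overlapping. The summed linear level of the 4 megakaryocyte markers ranged from 2101 to 3226 in the knockdown and from 3684 to 4586 in wild type. It moved with the groups mostly through Itga2b, and its part in the results below was not tested.

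Of the 25 probe sets, 20 exceeded log2 4 on 3 or more of the 6 arrays and were tested, and each of the 9 genes had at least 1 of these. The 5 others (1428008_at of Dnm1l, 1457371_at of Mff, 1419997_at of Mfn1, 1451900_at of Mfn2 and 1437822_at of Yme1l1) lay below the filter, with differences of −0.085 to 0.0099. In the limma fit with the replicate number as a block, 0 of the 20 passed an adjusted p of 0.05, against 0.0117% of the 17028 probe sets tested, which is 2 probe sets, both of Ehmt2. At an unadjusted p under 0.05 there were 4 of 20 (both Fis1 probe sets, Mfn2 and Oma1), against 13.7% of all tested, and without the block there were 2 of 20 (both Fis1), against 5.87% of all tested. Probe set 1443819_x_at of Fis1 was called when the filter was raised to log2 6, where 8 probe sets passed in all, and with array weights, where 4 did. The groups did not overlap at 4 of the 20. All knockdown arrays were below all wild type arrays at 3 of them (both of Fis1, and Oma1), against 7.33% of all tested, and above at 1 (Mtfr1), against 5.04%. Because the set was chosen on this contrast, nothing is read from these counts.

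**Figure D1:**
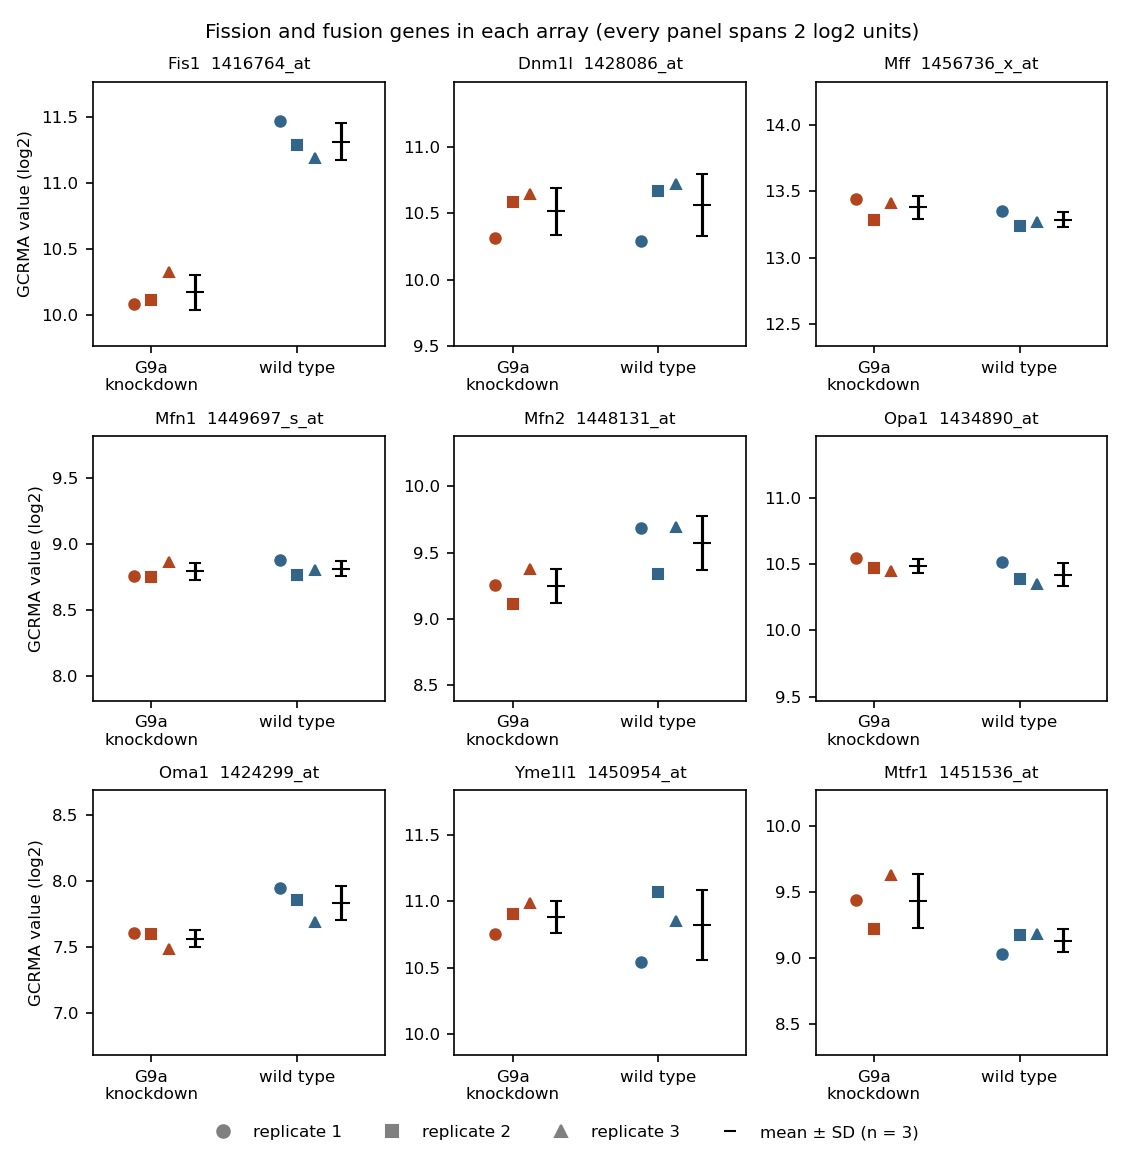
GCRMA log2 values (vertical axis, 2 log2 units in every panel) of the 9 genes in each G9a knockdown array (left, brown) and wild type array (right, blue), at the tested probe set with the highest mean; the marker shape gives the replicate number and the bar mean ± SD. Fis1 separates the groups by over 0.8 in every pair, while the groups of Dnm1l, Mff, Mfn1, Mfn2, Opa1 and Yme1l1 overlap.

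Fis1 encodes a small protein anchored by its tail in the outer membrane of mitochondria and peroxisomes. In yeast it is the receptor that brings the dynamin to the membrane, and in mammals it acts beside other receptors such as MFF. The first 250 bases before and 50 bases after its annotated start are shown because Fis1 is the member that stands apart. The window is chr5:136953025-136953324 on the plus strand of GRCm38.p6 (RefSeq), and capitals mark matches to CCGGAAG (an ETS motif), CCAAT and GGGCGG (a GC box) on either strand.
Fis1: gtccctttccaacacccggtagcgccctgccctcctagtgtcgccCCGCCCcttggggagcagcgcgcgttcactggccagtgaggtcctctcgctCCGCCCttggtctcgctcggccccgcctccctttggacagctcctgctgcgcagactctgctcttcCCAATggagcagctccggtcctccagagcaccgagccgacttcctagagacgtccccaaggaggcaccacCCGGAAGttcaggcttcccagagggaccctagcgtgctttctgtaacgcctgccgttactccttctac

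These letters held no match to GCGCANGCG (the core of the NRF1 motif), to the E-box CACGTG, to the GATA motif AGATAA, to the CACCC box CCACACCC or to the TATA box TATAAA, on either strand. The matches are a description of this window and not sites. Of the 32851 promoter windows of the RefSeq table, 8.86% held CCGGAAG, 37.4% CCAAT and 35.7% GGGCGG. Windows were matched for 8 of the 9 genes (all but Mtfr1), 13 in all. CCGGAAG was found in 5 of the 13 windows (of Fis1, Dnm1l, Mfn1 and Yme1l1), CCAAT in 6 and GGGCGG in 11. GCGCANGCG was found in 2 of the 13, those of Opa1 and Oma1, against 6.25% of all windows. Windows of the same gene can overlap. The 13 windows ran from 49.0% to 70.3% G and C and from 8 to 33 CpG dinucleotides. The motif counts were not adjusted for base composition. The window printed above had 65.0% G and C and 21 CpG dinucleotides. A second annotated start of Fis1, at chr5:136961827-136962126, had 54.7% and 8, and the medians of all windows were 52.7% and 7. The second Fis1 window was the only one of the 13 with AGATAA, which 11.2% of all windows held. No window of these genes held the E-box, the CACCC box or the TATA box, against 7.15%, 3.56% and 13.6% of all windows.

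At probe set 1416764_at, Fis1 read 10.08, 10.12 and 10.33 in the knockdown arrays and 11.46, 11.28 and 11.18 in wild type. The lowest wild type array lay 0.86 above the highest knockdown array, which are the arrays of pair 3. The means were 10.17 ± 0.13 and 11.31 ± 0.14, a difference of −1.14 (SE 0.13 in the blocked fit), or 2.20-fold lower in the knockdown. By pair the difference was −1.38, −1.17 and −0.86. The second probe set, 1443819_x_at, whose suffix marks probes that may also bind other transcripts, read 6.20, 6.0 and 6.06 in the knockdown and 7.58, 7.39 and 7.42 in wild type. Its pairs differed by −1.38, −1.39 and −1.36, so the spread between pairs was narrower there, and the mean of −1.37 (SE 0.092) is 2.59-fold lower.

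The linear MAS5 summary of the same arrays gave intensities of 1715, 1490 and 1877 in the knockdown and 3565, 3319 and 3387 in wild type at 1416764_at. At 1443819_x_at the MAS5 intensities were 583, 508.0 and 540.1 in the knockdown and 1009, 967 and 1001 in wild type. The groups were apart at both probe sets on this scale too. The MAS5 differences, as log2(value + 1), were −1.02 and −0.87, against −1.14 and −1.37 in GCRMA. Among the 17028 tested probe sets, 27 had a lower GCRMA difference than 1416764_at and 8 a lower one than 1443819_x_at. On the MAS5 scale the 2 probe sets ranked 61 and 107 from the lowest.

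**Figure D2:**
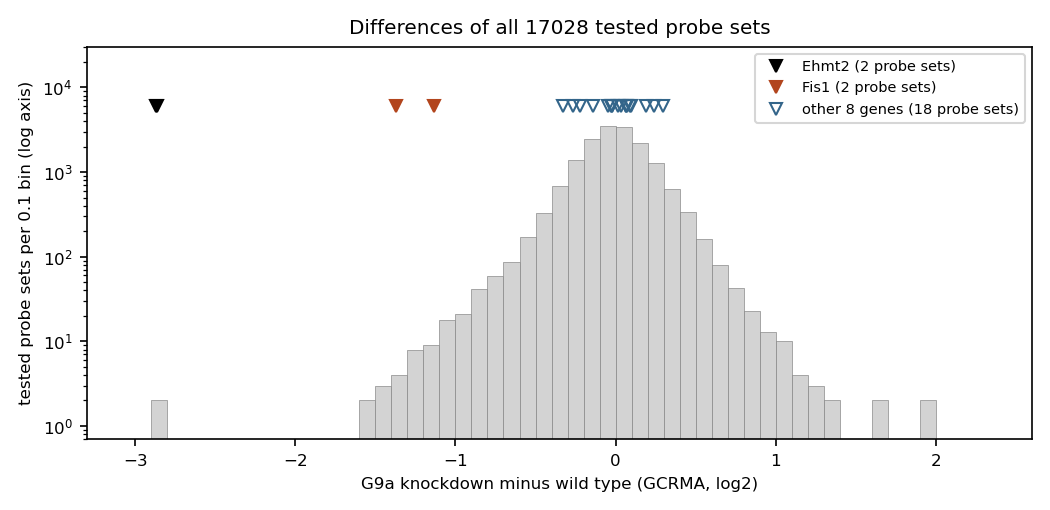
Knockdown minus wild type difference (GCRMA, log2) on the horizontal axis against the number of the 17028 tested probe sets in each bin (log axis). Triangles mark Ehmt2 at −2.86 and −2.87, Fis1 at −1.14 and −1.37, and the 18 tested probe sets of the 8 other fission and fusion genes, which lie between −0.33 and 0.30.

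The 3 other genes of the division machinery had differences between −0.14 and 0.30. Dnm1l, which encodes the GTPase DRP1 itself, read 10.32, 10.59 and 10.65 in the knockdown and 10.29, 10.67 and 10.73 in wild type at 1428086_at. The groups overlapped, both number 1 arrays were the lowest of their group, and the difference was −0.046 (SE 0.094). Its other tested probe sets disagreed in sign, with −0.14 at 1428087_at and 0.19 at 1452638_s_at, and the groups overlapped at each. At 1452638_s_at the pairs gave −0.086, 0.37 and 0.29, so the number 1 pair ran against the others.

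Mff, the outer membrane receptor that recruits DRP1, had small positive differences at all 3 of its tested probe sets. At 1456736_x_at it read 13.44, 13.28 and 13.41 in the knockdown and 13.35, 13.24 and 13.27 in wild type, a difference of 0.093 (SE 0.094). The groups overlapped in GCRMA. In MAS5, where the difference was 0.16, the knockdown arrays (13518 to 14447) were above the wild type arrays (11862 to 13432). The other Mff probe sets differed by 0.090 (1451572_a_at) and 0.031 (1456582_x_at), and 1456582_x_at by 0.31 in MAS5. The suffix of 1456736_x_at and 1456582_x_at marks probes that may also bind other transcripts.

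Mtfr1 encodes mitochondrial fission regulator 1, whose overproduction fragments mitochondria. At 1451536_at it read 9.44, 9.22 and 9.63 in the knockdown and 9.03, 9.18 and 9.18 in wild type, so the groups did not overlap. The gap between them was 0.035. By pair the difference was 0.41, 0.041 and 0.45, so number 2 was the smallest, and the mean was 0.30 (SE 0.12), or 1.23-fold higher. Its second probe set, 1424946_a_at, differed by 0.24 with pairs of −0.057, 0.15 and 0.62, and the groups overlapped. In MAS5 the 2 probe sets exchanged places. The groups overlapped at 1451536_at, with a difference of 0.15, and were apart at 1424946_a_at (754 to 818 in the knockdown, 588.0 to 744 in wild type).

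**Figure D3:**
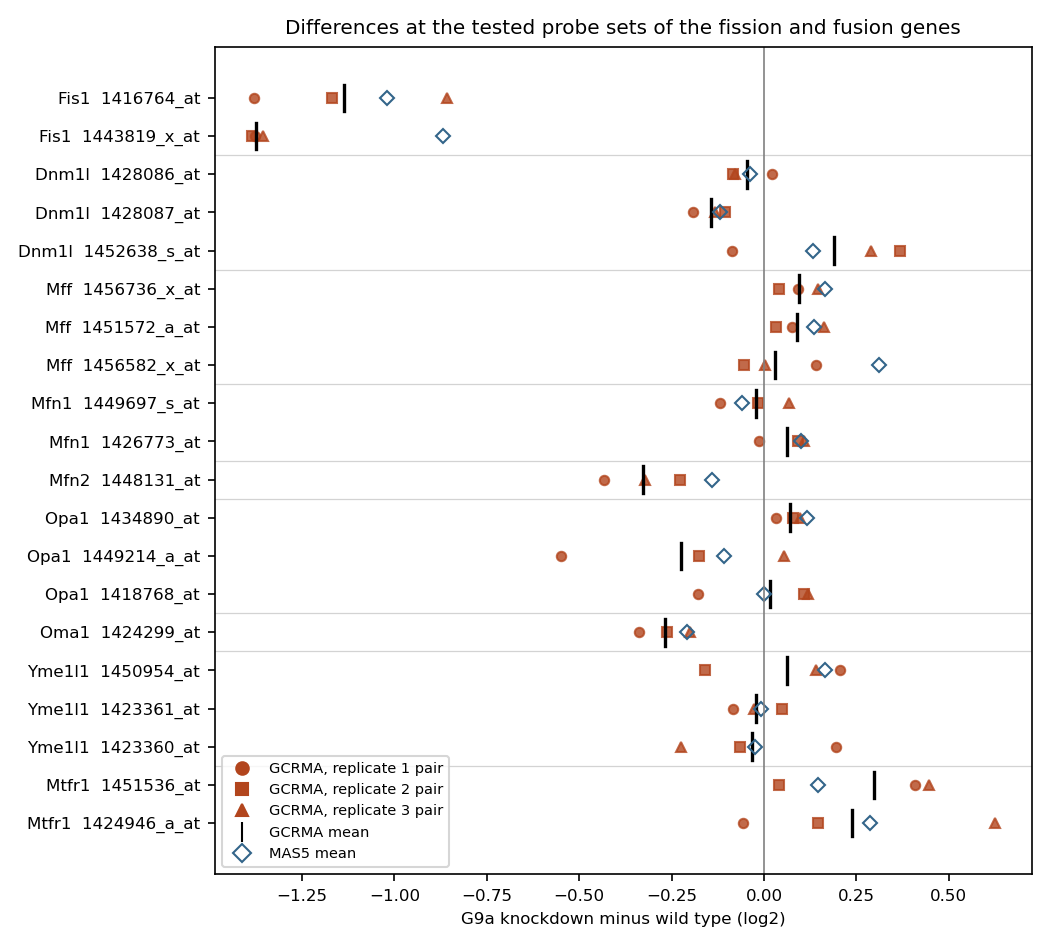
Knockdown minus wild type (log2, horizontal axis) at the 20 tested probe sets of the 9 genes. Filled markers are the 3 GCRMA pairs, black bars their mean, and open diamonds the MAS5 mean; both Fis1 probe sets lie below −0.8 in every pair, and all 18 others have GCRMA means between −0.33 and 0.30.

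The mitofusins are a pair of related outer membrane GTPases. Mfn1, an outer membrane fusion GTPase, read 8.76, 8.75 and 8.87 in the knockdown and 8.88, 8.77 and 8.80 in wild type at 1449697_s_at, a difference of −0.023 (SE 0.098). Its other tested probe set, 1426773_at, differed by 0.063, and the groups overlapped at both. Mfn2, which besides fusing outer membranes ties mitochondria to the endoplasmic reticulum, read 9.25, 9.11 and 9.37 in the knockdown and 9.69, 9.34 and 9.70 in wild type at its single tested probe set, 1448131_at. Each knockdown array was below its own partner, by −0.43, −0.23 and −0.32, but knockdown 3 lay above wild type 2, so the groups overlapped. The mean difference was −0.33 (SE 0.099), and in MAS5 it was −0.14. The difference between the mitofusins was not tested.

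Opa1, the inner membrane fusion GTPase, gave probe sets of both signs. At 1434890_at it read 10.55, 10.47 and 10.45 in the knockdown and 10.52, 10.39 and 10.35 in wild type, a difference of 0.070 (SE 0.093) with overlapping groups. At 1449214_a_at the difference was −0.22, with pairs of −0.55, −0.18 and 0.054, and knockdown 1 (8.54) was the lowest array. At 1418768_at it was 0.015.

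Oma1, the stress-activated protease that cuts OPA1, has a single probe set, 1424299_at. It read 7.61, 7.60 and 7.49 in the knockdown and 7.95, 7.86 and 7.69 in wild type. The groups did not overlap, by a margin of 0.083, and the pairs differed by −0.34, −0.26 and −0.20, a mean of −0.27 (SE 0.095) or 1.20-fold lower. In MAS5 the groups were also apart (599 to 655 in the knockdown, 694 to 763 in wild type), with a difference of −0.21. Yme1l1, the ATP-dependent protease that also cuts OPA1, read 10.75, 10.91 and 10.99 in the knockdown and 10.54, 11.07 and 10.85 in wild type at 1450954_at, a difference of 0.062 (SE 0.11). Its other tested probe sets differed by −0.021 and −0.032, the groups overlapped at all 3, and both number 1 arrays were the lowest of their group at 1450954_at.

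Over the 20 tested probe sets, 10 differences were above 0 and 10 below, with a median of −0.0026 against −0.0083 over all 17028. Leaving out Fis1, the median size of the difference was 0.080 at 18 probe sets, against 0.13 over all tested. The 18 were not matched for level to the probe sets tested, so nothing is read from that comparison. All 20 had the same sign in MAS5, which shares the arrays with GCRMA and is no further replicate. Of the 7 genes with several tested probe sets, 3 (Fis1, Mff and Mtfr1) had the same sign at all of them. Of the 20, 9 had the same sign in all 3 pairs, both of Fis1 among them. The share over all tested probe sets was not computed, so nothing is read from that count.

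The replicate number is a term that the choice of genes did not use, so it was tested. A number marks 1 knockdown and 1 wild type array, and the labels do not say what it stands for. In limma's moderated F test of that term, 383 of all probe sets passed an adjusted p of 0.05, which is 2.25%, while 0 passed in MAS5 or without either number 1 array. Of the fission and fusion probe sets 0 of 20 passed, with a smallest adjusted p of 0.184, at 1428086_at of Dnm1l. At an unadjusted p under 0.05 there were 2 of 20, both of Dnm1l (1428086_at and 1452638_s_at), against 24% of all tested. At 1428086_at the number 1 arrays averaged 10.30, against 10.63 and 10.69 for numbers 2 and 3. At 1452638_s_at the order differed, with 6.38, 6.58 and 6.06 for numbers 1 to 3, so number 3 was the lowest there. Fis1 at 1416764_at averaged 10.77, 10.70 and 10.75 over numbers 1 to 3, with an adjusted p of 0.939 for the term.

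Other genes of the pathway, from lists written for this purpose, were set beside these. Of 30 other mitochondrial dynamics genes, which include receptors, proteases, scaffolds and transport adaptors, 27 were tested. Of these 15 were higher and 12 lower, 0 passed an adjusted p of 0.05 in limma (0 also at an unadjusted p under 0.05), and the median difference was 0.011. The largest differences were those of Mtfr1l, a relative of Mtfr1, at −0.32 (−0.19 and −0.16 at its other probe sets), and of the rhomboid protease gene Parl at −0.29. The mitoguardin gene Miga1, whose product aids fusion, was at 0.29 (−0.060 at its other probe set), and Ppif, which encodes the permeability pore regulator cyclophilin D, at −0.28. The groups overlapped at Parl, Miga1 and Ppif. They were apart at 2 genes of the list, Mtfr1l (lower, as were 7.33% of all tested probe sets) and Afg3l2 (higher, as were 5.04%). The inner membrane protease gene Afg3l2, at 0.23 (0.36 at its other probe set), is named because its groups were apart.

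The inner membrane folds are held by the contact site complex, for which 11 of 11 listed genes were tested. Of these 3 were higher and 8 lower, with a median of −0.10. In limma 0 passed (1 at an unadjusted p under 0.05, against 13.7% of all tested probe sets). The signs depend on the probe set shown. Chchd3, counted as higher at 0.078, was at −0.38 at its other probe set, and Dnajc11, counted as lower at −0.0020, was at 0.22. Apoo differed by −0.27, with the groups apart, Immt, the core subunit, by −0.22 (−0.24 and −0.14 at its other probe sets), Micos13 by −0.19, with the groups apart, and Samm50 of the outer membrane by −0.13 in GCRMA and 0.11 in MAS5. Mtx2, of the outer membrane, was apart in the other direction, at 0.055, and is named for that reason. Of the 11 genes the groups were thus apart at 2 lower and 1 higher, against 7.33% and 5.04% of all tested probe sets.

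Genes of the outer membrane, protein import and the matrix were listed as signs of mitochondrial content. Of 19 listed, 18 were tested, 9 higher and 9 lower, with a median of −0.00084, and 0 passed in limma (0 also at an unadjusted p under 0.05). The chaperonin gene Hspe1 differed by 0.27, the import channel gene Tomm40 by −0.26, and the import genes Timm17a and Timm23 by −0.17 and −0.14 (Timm23 by 0.020 in MAS5).

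Fis1 also sits on peroxisomes and is a tail-anchored protein, so genes of both kinds were listed. Of 13, 11 were tested, 4 higher and 7 lower, with a median of −0.15. In limma 0 passed (1 at an unadjusted p under 0.05, against 13.7% of all tested probe sets). The peroxisomal transporter gene Abcd3 differed by −0.36, with pairs of −0.24, 0.0030 and −0.85, so pair 3 carried most of it. Get4, of the insertion pathway for tail-anchored proteins, differed by −0.29, with the groups apart, and by 0.31 at its other probe set, and the peroxin genes Pex14 and Pex16 by −0.21 and −0.16. Each of the 4 medians is given beside the −0.0083 of all tested probe sets. The list medians are over genes, each at the probe set shown, while the −0.0083 can count a gene several times. The bases thus differ.

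**Figure D4:**
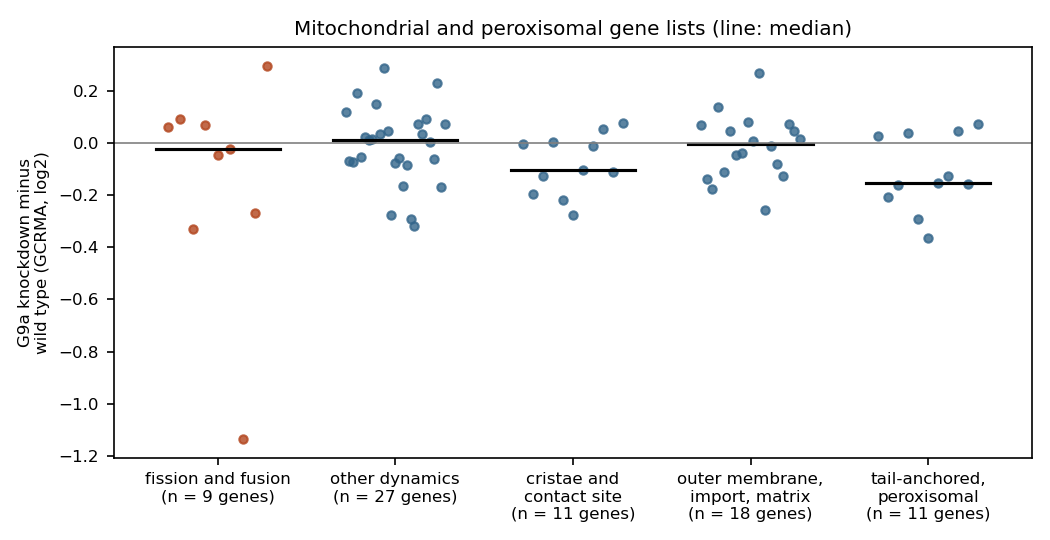
Knockdown minus wild type difference (GCRMA, log2, vertical axis) of each tested gene in the 9 fission and fusion genes (brown) and in 4 lists of mitochondrial and peroxisomal genes (blue), 1 point a gene, with the median as a line. The lowest point is Fis1 at −1.14; the lowest in the 4 lists is Abcd3 at −0.36.

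Fis1 lies on chromosome 5, and its nearest tested neighbours in the RefSeq gene order were compared with it. The genes before it were Ift22, a gene of intraflagellar transport, at −0.59 (SE 0.12) with pairs of −0.45, −0.85 and −0.45, and the noncoding 4933404O12Rik at −0.21, whose level of 4.21 ± 0.088 in the knockdown and 4.42 ± 0.39 in wild type is close to the filter. Cux1, 11 genes away, was at 0.089, with −0.26 to 0.33 at its 5 other probe sets. On the other side were Znhit1, a chromatin remodelling subunit gene, at −0.21, the collagen-modifying Plod3 at 0.40 (0.079 in MAS5) and Ap1s1 at −0.058. Of these 6 genes, 0 passed the limma threshold. The groups did not overlap at 1, Znhit1, which was lower in the knockdown, as were 7.33% of all tested probe sets. The gene that directly follows Fis1, Cldn15, is on the array and lay below the filter.

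**Figure D5:**
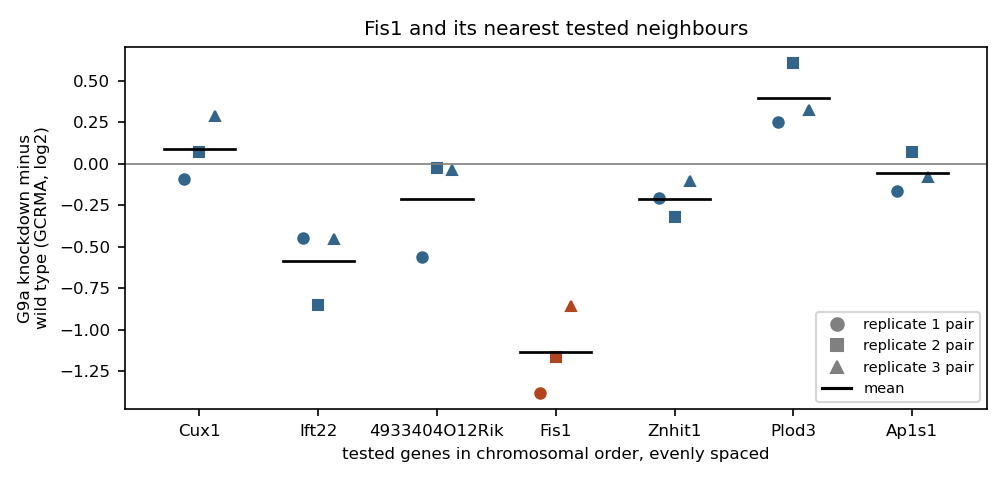
Knockdown minus wild type (GCRMA, log2, vertical axis) of Fis1 (brown) and the 3 nearest tested genes on each side (blue), in chromosomal order and evenly spaced; markers are the 3 pairs and lines their mean. Fis1 is lowest at −1.14, followed by Ift22 at −0.59, and Plod3 is highest at 0.40.

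The genes whose pattern over the 6 arrays was most like that of Fis1 were taken by the root mean square gap between deviations from the mean of the 6 arrays, over 9016 other genes. They were Erp29, an endoplasmic reticulum chaperone gene, with a gap of 0.14 log2 units, Atxn10 (0.17), the phosphodiesterase gene Pde7a (0.18), the translation repressor gene Eif4ebp2 (0.19) and 2810004N23Rik (0.19). Erp29 read 8.80, 8.83 and 9.03 in the knockdown and 9.95, 9.63 and 9.82 in wild type. The differences of the 5 were −0.92, −1.16, −0.80, −0.93 and −0.81, and the groups did not overlap at any of them, as the choice by likeness to Fis1 brings about. Other tested probe sets disagreed in size or sign for 4 of them. They ranged from −1.23 to −0.31 for Atxn10, from −0.79 to 0.21 for Pde7a and from −0.45 to −0.15 for Eif4ebp2, and the single other one of 2810004N23Rik was at −0.057.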

How the data were processed

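Per the labels, each of 6 Affymetrix hybridizations was deposited as a MAS5 and a GCRMA column, so the 12 columns are 6 arrays. The deposited MAS5 values are intensity on a linear scale, which the authors had scaled, since the 2% trimmed mean was 500 in each array. The deposited GCRMA values are log2, from 0.69 to 16.49. Versions and parameters of that software were not given in the sources. Gene names came from the platform annotation, which names 1 gene for 34958 of the 45101 probe sets, several for 932 and none for 9211. All 25 fission and fusion probe sets kept their symbol in the RefSeq table of GRCm38.p6, which also gave the gene order and the promoter windows.

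The 64 control probe sets were left out. The 17028 probe sets that exceeded log2 4 on 3 or more arrays were fitted in R 4.3.3 by limma 3.58.1 (moderated linear models, group and replicate number as terms, Benjamini-Hochberg adjustment over all of them, threshold 0.05). The code was tested on simulated data. Each gene is shown at whichever tested probe set had the highest mean. MAS5 was used as log2(value + 1). The block on replicate number was planned beforehand, in view of an earlier report on these data that found same-numbered arrays to deviate together. Arrays of the same number deviated together from their group means (correlations of 0.72, 0.57 and 0.37 across probe sets). Between different numbers the correlations ran from −0.59 to 0.17. Deviations within a group are bound to cancel, so these correlations are not independent of one another. Whether replicates are separate cultures is not stated, and the p-values therefore reflect only array-to-array spread, possibly technical. The number of arrays limits the precision.

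The genes, the lists and the rule for named genes (every fission and fusion probe set, the targeted gene, up to 4 genes of each list by size of difference, 3 tested neighbours on each side of Fis1 and the 5 genes most like it, with Afg3l2 and Mtx2 added after their values were seen) were chosen with earlier results of these data known. The alternatives were no block, MAS5 with 2 pseudocounts (1 and 16), other filters, 2 scalings, array weights and leaving out each array.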

Additional observations from a re-analysis of the deposited data

How the results depend on the processing

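With no replicate block, 1 probe set passed in place of 2, and the Fis1 difference stayed at −1.14. With MAS5 at either pseudocount and with no filter, 0 passed, and 0 passed for the replicate number, against 383. With the filter at log2 6, 8 probe sets passed, 1 of them of a fission or fusion gene (Fis1 at 1443819_x_at), and 688 for the replicate number. With array weights 4 of the 17028 passed, 1 of them the same Fis1 probe set. Its knockdown values (6.20, 6.0 and 6.06) lay close to the log2 6 filter. The set was chosen on this contrast, so nothing is read from these calls of Fis1. Fewer or more probe sets enter the adjustment under another filter. The cause of the other shifts was not tested. Leaving out single arrays, with or without the block, gave 0 to 1 called probe sets, 0 to 938 for the replicate number (0 without either number 1 array, 43 without knockdown 2, 200 without wild type 2, 804 without wild type 3 and 938 without knockdown 3) and Fis1 differences of −1.27 to −1.01. At its other probe set Fis1 was at −1.37. In each of these settings 0 fission and fusion probe sets were called for the replicate number. The signs of Fis1, Mff, Mfn2, Mtfr1, Oma1 and Opa1 at the probe sets shown held in all 18 alternatives, and those of Dnm1l, Mfn1 and Yme1l1 in 15. These 18 are not all separate. With the block, leaving out either array of a pair gives the same difference, and the 2 MAS5 pseudocounts gave nearly the same values. The Mfn2 difference ranged from −0.45 to −0.14. Leaving out single arrays gave 0.20 (without knockdown 3, no block) to 0.43 (without either number 2 array) for Mtfr1, 0.037 (without wild type 3, no block) to 0.12 (without wild type 1, no block) for Opa1, 0.062 (without knockdown 1, no block) to 0.14 (without knockdown 2, no block) for Mff and −0.34 to −0.21 for Oma1. It gave −0.18 to 0.055 for Dnm1l, −0.067 to 0.025 for Mfn1 and −0.076 to 0.19 for Yme1l1.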
